A study of Mus musculus with 10 samples.

Results

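The genes described here are 10 genes of lipoxygenase and prostaglandin synthesis, *Aloxe3*, *Alox5*, *Alox5ap*, *Alox12*, *Alox15*, *Alox8*, *Ptgs1*, *Ptgs2*, *Lta4h* and *Ptges*, out of 55453 genes counted in hippocampal microglia. They were taken by symbol from the count table, and each symbol had 1 row. The set was chosen from measured values: it was put together because *Aloxe3* was higher in the libraries of treated mice in this same comparison, so the difference in *Aloxe3* between treatments is given as a description without a test, and nothing is supported by it. The other members entered by their place in the pathway, with the results of these libraries already known.

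Hippocampal microglia (CD45int CD11b+) came from female 3xTg AD mice. This Alzheimer's model carries human *MAPT* bearing P301L and human *APP* bearing the Swedish mutation, both driven by the Thy1.2 promoter, which is known to act in neurons. The mice were over 15 months old at treatment by the labels. The GA group (5 libraries) received glatiramer acetate, a synthetic mixture of polypeptides used as an immunomodulatory drug, at 0.1 mg weekly for approximately 8 weeks. By the study's methods an additional injection was given in the first week. The control group (5 libraries) received PBS on the same schedule. Both groups share the transgenes, age and sex, and no non-transgenic libraries were analysed here. The labels do not say whether each library came from a separate animal, and p-values below therefore measure only the spread between these libraries. RNA was amplified with a full-length cDNA kit and sequenced as single reads.

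Total counts were 32332185 to 37708856 per library in the PBS group and 33300102 to 38764643 in the GA group. The 10 microglial markers summed to 56190 to 66370 CPM (counts scaled by library size after TMM normalization) in PBS libraries and to 57210 to 62010 CPM in GA libraries, and all 10 passed the filter on low counts. Sums for markers of other cells were far lower. The 6 astrocyte markers summed to 246 to 303 CPM in PBS libraries and 249 to 354 CPM in GA libraries, most of it from *Slc1a3* (mean 281.4 CPM). The 12 neutrophil markers, all of them counted in at least 1 library, summed to 44.0 to 470 CPM in PBS libraries and 17.6 to 183 CPM in GA libraries. The sums of 9 monocyte markers ran from 51.3 to 175 CPM and from 52.6 to 112 CPM, and those of 10 markers of border-associated macrophages from 58.2 to 279 CPM and from 56.6 to 217 CPM. In the library titles a prefix stands before a number. PBS libraries all have the prefix 388, GA libraries 394_1 and 394_2 the prefix 394 and GA libraries 400_1, 400_2 and 400_3 the prefix 400. What the prefix stands for is not stated, and it cannot be told apart from treatment.

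Eicosanoids are signalling lipids made from arachidonic acid after phospholipases release it from membranes. Lipoxygenases add oxygen to it and lead to leukotrienes, hydroxylated fatty acids and hepoxilins, while cyclooxygenases convert it to prostaglandin H2, from which terminal synthases make the individual prostaglandins and thromboxane. Microglia are known to express cyclooxygenase-1, and cyclooxygenase-2 is known for its induction in inflammation and in active neurons.

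The members lie on 6 chromosomes of GRCm38, the build named in the submitters' processing notes, and the coordinates given here are those of GENCODE M21 on that build. Of the lipoxygenase genes, 4 lie on chromosome 11: *Aloxe3* (chr11:69125896-69149115, plus strand, 13 exon blocks), *Alox8* (chr11:69183932-69197843, minus strand), *Alox12* (chr11:70241457-70255353, minus strand) and *Alox15* (chr11:70344152-70352031, minus strand). *Alox5* lies at chr6:116410077-116461178 on the minus strand and *Alox5ap* at chr5:149264767-149288153 on the plus strand. *Lta4h* lies at chr10:93453411-93484875 (plus), *Ptgs1* at chr2:36230426-36252272 (plus), *Ptgs2* at chr1:150100031-150108227 (plus) and *Ptges* at chr2:30889471-30929863 (minus). *Alox5ap* shares 189 exonic bases with an antisense gene, *Gm19719*, and *Ptgs1* shares 148 with *Gm43621*; the kit does not mark strand, and reads in those bases could belong to either gene.

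The sequences around the start sites of both cyclooxygenase genes are printed because these genes lay far apart in level, as described next, and that of *Alox5* because it is the lipoxygenase with the highest level. RefSeq start sites on GRCm38.p6 were available here for 7 of the 10 members (*Alox12*, *Alox5*, *Alox8*, *Lta4h*, *Ptges*, *Ptgs1* and *Ptgs2*). Each window holds 250 bases before and 50 bases after the start, 5′ to 3′ on the gene's own strand, at chr2:36230176-36230475 (plus) for *Ptgs1*, chr1:150099781-150100080 (plus) for *Ptgs2* and chr6:116461129-116461428 (minus) for *Alox5*. Capitals mark GAGGAA, the core bound by the myeloid factor PU.1, GGGCGG, the GC box, and CGTCA, the core of a cyclic AMP response element, on either strand.
Ptgs1: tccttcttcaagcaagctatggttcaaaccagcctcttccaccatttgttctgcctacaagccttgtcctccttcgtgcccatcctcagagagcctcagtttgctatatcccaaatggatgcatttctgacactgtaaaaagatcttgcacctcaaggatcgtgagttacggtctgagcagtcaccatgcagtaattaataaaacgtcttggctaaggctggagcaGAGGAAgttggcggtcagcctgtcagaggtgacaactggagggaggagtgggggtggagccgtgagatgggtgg
Ptgs2: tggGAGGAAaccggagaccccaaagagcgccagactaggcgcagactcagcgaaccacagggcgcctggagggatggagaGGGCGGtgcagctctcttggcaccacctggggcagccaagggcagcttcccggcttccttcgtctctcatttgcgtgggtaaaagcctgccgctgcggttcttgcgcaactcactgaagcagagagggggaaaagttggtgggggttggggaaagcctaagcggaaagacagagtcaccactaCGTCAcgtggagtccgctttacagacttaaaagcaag
Alox5: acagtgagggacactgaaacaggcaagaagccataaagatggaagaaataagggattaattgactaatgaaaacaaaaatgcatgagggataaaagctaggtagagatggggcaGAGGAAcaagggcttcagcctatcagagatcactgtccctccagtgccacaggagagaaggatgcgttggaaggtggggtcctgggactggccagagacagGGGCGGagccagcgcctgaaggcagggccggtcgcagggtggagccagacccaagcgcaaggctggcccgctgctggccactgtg

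The *Ptgs1* window held GAGGAA at position -24 from the start and no other of the motifs searched, which also included TATAAA and CCAAT. The *Ptgs2* window held GAGGAA at -247, GGGCGG at -170 and CGTCA at 14, and the *Alox5* window GAGGAA at -136 and GGGCGG at -35. Among all 32851 windows of the same length, GAGGAA occurred on either strand in 28.3%, GGGCGG in 35.7%, CGTCA in 20.8%, TATAAA in 13.6% and CCAAT in 37.4%. GC content was 50.7% for *Ptgs1*, 55.7% for *Alox5* and 59.3% for *Ptgs2*, against a median of 52.7%. These matches describe letters in a window and are not evidence of binding.

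Levels of the members were first ordered per length, as CPM per kilobase of merged exons (RPKM), over all 10 libraries. *Ptgs1*, the constitutive cyclooxygenase, was highest at 332 ± 18.2 RPKM (SD, n = 10), followed by *Alox5ap*, which presents arachidonic acid to 5-lipoxygenase, at 98.5 ± 8.68 RPKM. *Alox5*, the enzyme that starts leukotriene synthesis, came next at 27.4 ± 4.98 RPKM and *Lta4h*, which makes leukotriene B4, at 12.2 ± 0.961 RPKM. The machinery for leukotriene B4 and for prostaglandin H2 by way of cyclooxygenase-1 thus made up the 4 members well above the rest.

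The other 6 members were low. *Aloxe3*, a hepoxilin synthase best known from the skin barrier, had 0.364 ± 0.166 RPKM, *Alox15* 0.256 ± 0.124 RPKM and *Alox12*, the platelet-type lipoxygenase, 0.190 ± 0.107 RPKM (SD, n = 10 each). *Ptgs2*, the inducible cyclooxygenase, had 0.148 ± 0.136 RPKM, *Ptges*, the inducible microsomal prostaglandin E synthase, 0.050 ± 0.0328 RPKM and *Alox8* 0.0142 ± 0.0330 RPKM. Neighbours in this order were compared within libraries by an exact two-sided sign-flip test on log2 levels for the 8 members with a median of at least 10 counts, with adjustment over 7 pairs and 0.00195 as the smallest p-value possible. The steps between the 4 highest members were each in the same direction in 10 of 10 libraries (exact adjusted p = 0.00342 each). *Ptgs1* stood 3.38-fold above *Alox5ap*, *Alox5ap* 3.63-fold above *Alox5* and *Alox5* 2.22-fold above *Lta4h*. The step from *Alox5* to *Lta4h* was 1.35-fold, in 9 of 10 libraries, with lengths of the longest transcript (exact adjusted p = 0.00684). Further down, *Alox15* was 1.39-fold above *Alox12* in 7 of 10 libraries (exact adjusted p = 0.246) and *Alox12* 2.10-fold above *Ptgs2* in 6 of 10 (exact adjusted p = 0.103). With lengths of the longest transcript, *Alox12* over *Ptgs2* passed (2.78-fold, exact adjusted p = 0.0182) and *Alox15* over *Alox12* did not (1.04-fold, exact adjusted p = 0.900). The steps from *Lta4h* to *Aloxe3* and from *Aloxe3* to *Alox15* are given without a test, since both hold the GA values for which *Aloxe3* was chosen. Both remained among the 7 pairs of the adjustment. *Lta4h* was 36.6-fold above *Aloxe3*, in the same direction in 10 of 10 libraries. *Aloxe3* and *Alox15* had mean levels of 0.237 and 0.206 RPKM in PBS and of 0.490 and 0.306 RPKM in GA. Without 388_4, which had 0 reads of *Ptgs2*, *Alox12* over *Ptgs2* was 1.35-fold. These folds are means on the log2 scale with 0.5 counts added, and the order was read from the same libraries that were tested.

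**Figure D1:**
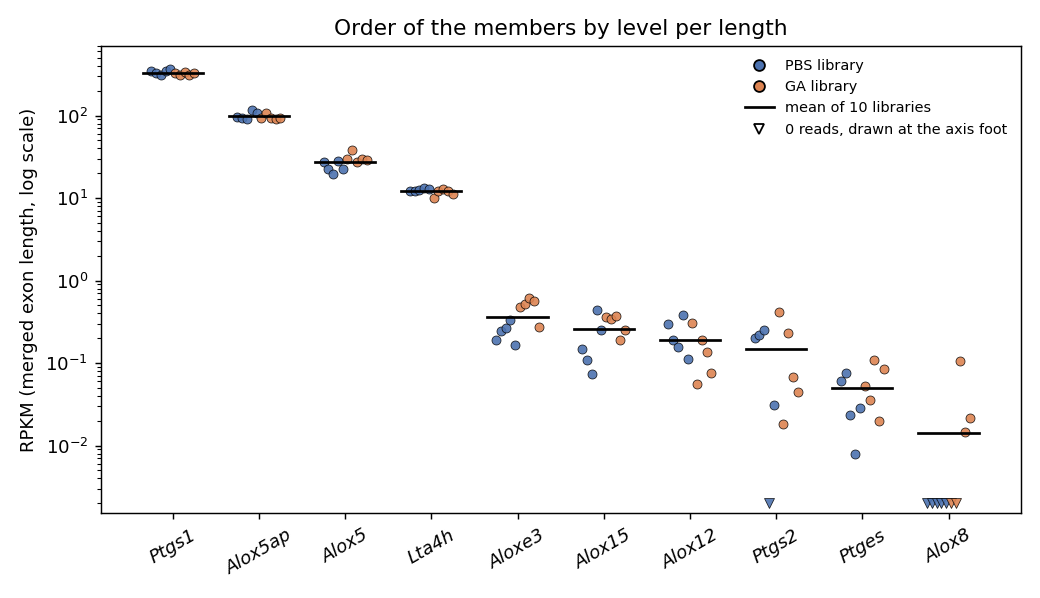
Level of each member per length in RPKM (log axis) in the 10 libraries, PBS in blue and GA in orange, with a line at the mean of all libraries and triangles at the foot of the axis for 0 reads. The upper 4 members lie between 12.2 and 332 RPKM on average and the other 6 at or below 0.364 RPKM.

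The cyclooxygenases lay far apart in level. *Ptgs1* ranked 66th of 14481 tested genes by mean CPM, with 99.5% of the genes below it. Over all libraries *Ptgs1* had 454576 reads and *Ptgs2* 235, so that *Ptgs2* held 0.0517% of cyclooxygenase reads (95% Wilson interval 0.0455% to 0.0587%, covering counting error only). Per length the mean level of *Ptgs1* was 2237-fold that of *Ptgs2*.

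Treatment was compared gene by gene with edgeR's quasi-likelihood test over all 14481 genes that passed the filter on low counts, and fold changes are given as GA relative to PBS. Of the 10 members, 8 passed the filter (*Alox8* and *Ptges* did not). None of the 8 passed an adjusted p of 0.05, as 0 of 14481 genes did (0%). At an unadjusted p below 0.05 there were 833 genes (5.75%), and DESeq2 with its defaults called 2 genes at an adjusted p below 0.05. Besides *Aloxe3*, the adjusted p-values of the members lay between 0.847 and 0.990 (edgeR). Of the 7 tested members other than *Aloxe3*, 3 had a positive and 4 a negative log2 fold change, with a median of -0.07 against 0.00 over all tested genes. With *Aloxe3*, which was chosen for its direction, the median was 0.03. In no member were the groups free of overlap, while 129 of all tested genes (0.891%) had groups that did not overlap.

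*Aloxe3* had 1.20, 1.55, 1.68, 2.11 and 1.05 CPM in PBS libraries 388_1 to 388_5. In the GA group it had 3.03 and 3.31 CPM in 394_1 and 394_2, and 3.96, 3.64 and 1.75 CPM in 400_1, 400_2 and 400_3. In the GA group 4 libraries were above every PBS library, and the remaining one, 400_3, lay between the PBS libraries 388_3 and 388_4. These values rest on 37 to 68 counts per PBS library and 68 to 139 counts per GA library. The means were 1.52 ± 0.416 CPM in PBS and 3.14 ± 0.851 CPM in GA (SD, n = 5), a log2 fold change of 1.05 (SE 0.28). The GA libraries of the 2 prefixes had similar means, 3.17 CPM for 394 and 3.12 CPM for 400.

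By DESeq2, the tool named in the study's methods, *Aloxe3* was among 15 of 18894 genes higher in GA at an adjusted p below 0.1 (0.0794%), the threshold that chose it. The genes next to that threshold on the inner side were *Aloxe3* itself and *Tlr1* (47.1 CPM in PBS, 63.5 CPM in GA, log2 fold change 0.43). Just outside it were *Rbm43* (23.1 and 29.0 CPM, 0.33) and *Cstf3* (32.2 and 39.5 CPM, 0.30). No other member came below 0.1 (lowest adjusted p 0.384, DESeq2).

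The genes within 50 kb of *Aloxe3* were read for the same libraries. *Vamp2*, a synaptic vesicle protein, had 84.8 ± 14.1 CPM in PBS and 82.8 ± 3.02 CPM in GA (SD, n = 5 each). *Per1*, a circadian clock gene, had 20.0 ± 9.49 CPM in PBS and 13.1 ± 7.38 CPM in GA, a log2 fold change of -0.62 (SE 0.36, edgeR adjusted p = 0.895). *Hes7*, whose end lies 1840 bases before *Aloxe3*, had at most 7 counts in a library, and *Alox12b*, the partner of *Aloxe3* in the skin, had 0 counts in all 10 libraries. *9130213A22Rik* had at most 16 counts in a library, with means of 0.117 ± 0.155 CPM in PBS and 0.253 ± 0.170 CPM in GA (SD, n = 5 each). *Alox8*, 34816 bases beyond *Aloxe3*, is described with the lipoxygenases below.

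Across the 10 libraries, the genes whose log2 CPM followed *Aloxe3* most closely among 14480 others were *Rita1* (Pearson's r = 0.91, Spearman's rho = 0.90), *Pfkfb4* (0.91, 0.83), *Mmgt1* (0.89, 0.94), *Ms4a14* (0.87, 0.85) and *Sdad1* (0.86, 0.89). All 5 also had higher means in GA, from 0.269 to 0.540 CPM for *Ms4a14* and from 102.7 to 120.6 CPM for *Pfkfb4*. Among the members *Alox5* was the most alike (r = 0.61, rank 363), followed by *Alox15* (r = 0.49), and *Ptgs1* ran the other way (r = -0.59). These values are a description over 10 libraries in 2 groups that share the difference used to choose *Aloxe3*.

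**Figure D2:**
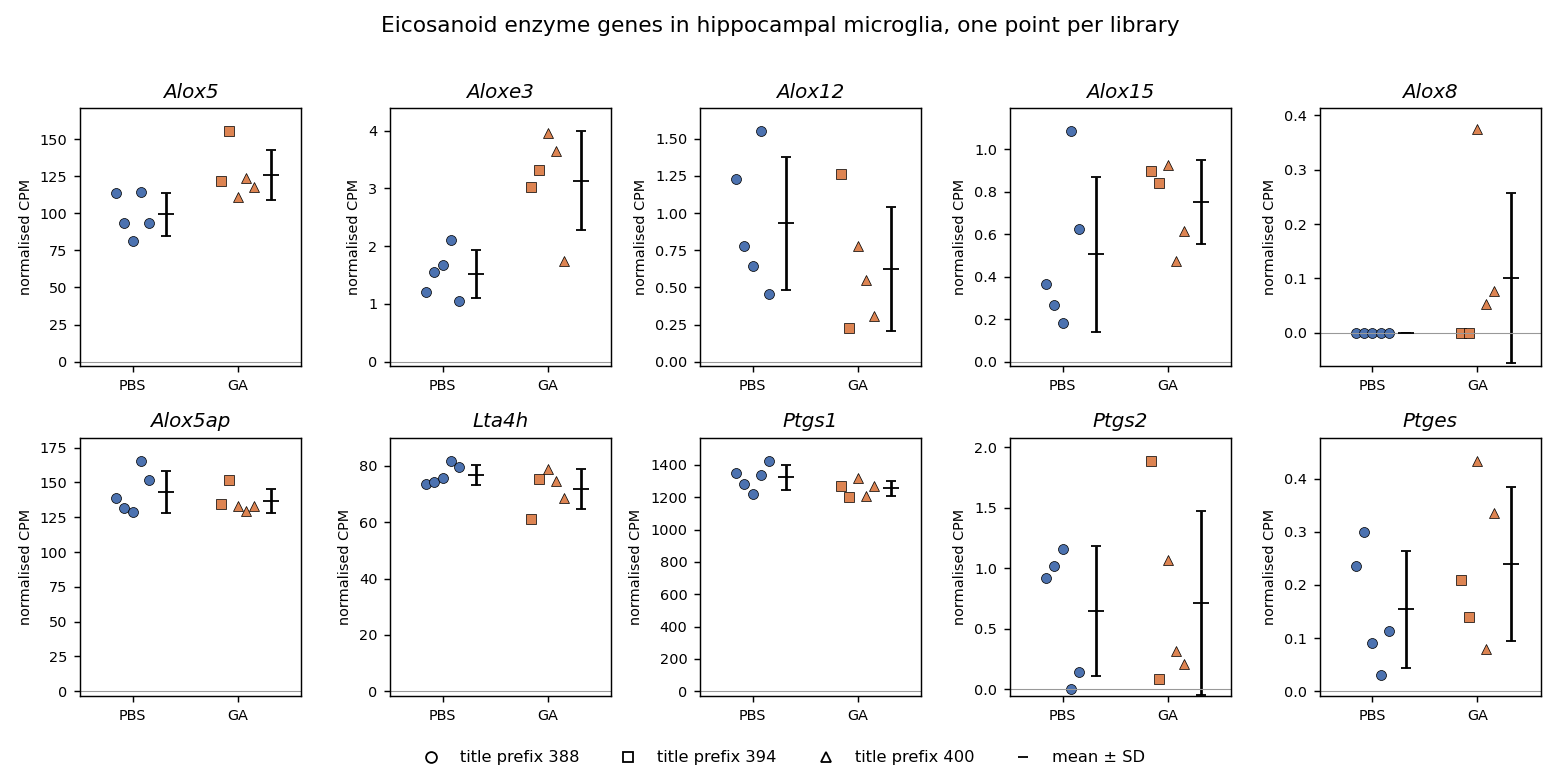
Normalised CPM of each member in every library (linear axes, a separate scale per gene), PBS in blue and GA in orange, with marker shape for the title prefix and bars for mean ± SD (n = 5 per group). *Aloxe3* and *Alox5* have 4 of 5 GA libraries above all PBS libraries, *Ptgs1* spans 1202 to 1425 CPM, and *Ptgs2* spreads from 0 to 1.89 CPM.

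Among the proteins of leukotriene synthesis, *Alox5* had 113.8, 93.7, 81.2, 114.6 and 93.2 CPM in PBS libraries 388_1 to 388_5. In the GA group it had 121.5, 155.2, 111.3, 123.6 and 117.4 CPM in 394_1, 394_2, 400_1, 400_2 and 400_3. In GA, 4 libraries exceeded every PBS library, 400_1 fell below 388_1 and 388_4, and 394_2 was the highest of all. The means were 99.3 ± 14.5 CPM in PBS and 125.8 ± 17.1 CPM in GA (SD, n = 5), with a log2 fold change of 0.34 (SE 0.11). It had the lowest adjusted p of the members other than *Aloxe3* (0.847, edgeR). Without 394_2 the log2 fold change was 0.255. The summed neutrophil markers, which belong to cells that also use *Alox5*, had a mean of 273 CPM in PBS and 77.5 CPM in GA, and their part in the *Alox5* values was not tested. The CD45int gate is meant to leave out neutrophils, which are CD45hi.

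*Alox5ap* had 138.5, 131.6, 128.5, 165.5 and 151.8 CPM in the PBS libraries 388_1 to 388_5 and 134.6, 152.1, 133.4, 129.8 and 132.9 CPM in the GA libraries, listed as 394_1, 394_2 and 400_1 to 400_3. The GA values lay wholly inside the PBS range of 128.5 to 165.5 CPM, with a log2 fold change of -0.07 (SE 0.08), which had the opposite sign at 0.01 with the 394 libraries alone. *Lta4h* had 73.6 to 81.8 CPM in PBS and 61.4 to 79.1 CPM in GA, with means of 77.0 ± 3.55 and 71.9 ± 6.96 CPM (SD, n = 5) and a log2 fold change of -0.10 (SE 0.08). The lowest *Lta4h* value belonged to 394_1 and the highest to 388_4.

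Since *Alox5ap* and *Alox5* act as a pair, their levels were also set against each other per exon length. This ratio was looked at after the values of both genes had been seen, and it carries no test. It was 3.52, 4.06, 4.58, 4.18 and 4.71 in PBS libraries 388_1 to 388_5 and 3.20, 2.83, 3.47, 3.04 and 3.27 in GA libraries 394_1, 394_2, 400_1, 400_2 and 400_3. The PBS values were all above the GA values, by a narrow margin between 388_1 and 400_1. Of the ratios of all 14480 other tested genes to *Alox5*, 9.32% had groups that did not overlap, and of those to *Alox5ap* 0.642%. The mean was 4.21 ± 0.471 in PBS and 3.16 ± 0.240 in GA (SD, n = 5).

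**Figure D3:**
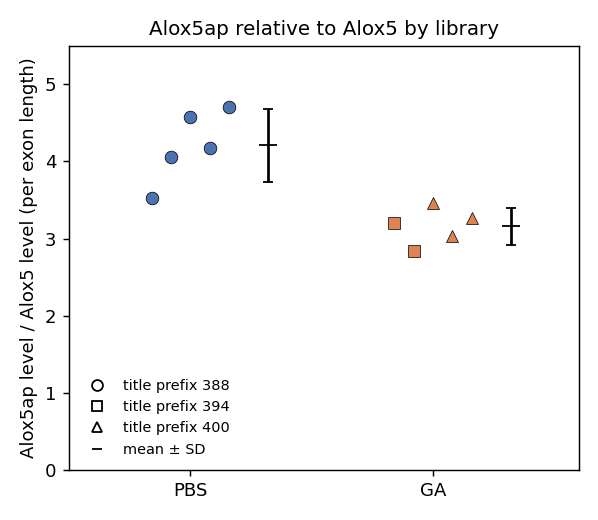
Level of *Alox5ap* divided by the level of *Alox5*, both per merged exon length, in each library, with bars for mean ± SD (n = 5 per group) and marker shape for the title prefix. PBS libraries lie between 3.52 and 4.71 and GA libraries between 2.83 and 3.47.

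The other lipoxygenases were near the limit of what these libraries can resolve. *Alox12* had 1.23, 0.777, 0.641, 1.55 and 0.454 CPM in PBS and 1.26, 0.225, 0.780, 0.550 and 0.309 CPM in GA, in the same order of libraries, from 8 to 50 counts. The GA libraries 394_2 and 400_3 lay below every PBS library and 388_4 above every GA library, and the others overlapped (log2 fold change -0.58, SE 0.50). The 8 platelet markers, which mark cells with abundant *Alox12*, summed to 121 to 178 CPM in PBS and 137 to 185 CPM in GA, most of it from *Itgb3* (mean 123.2 CPM) and *Gp9* (31.0 CPM). *Gp1bb* and *Gp6* were at 0 in all libraries and *Ppbp* had at most 4 counts, and the part of platelets, which the CD45int CD11b+ gate is meant to leave out, in the *Alox12* reads was not tested.

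*Alox15*, the lipoxygenase of eosinophils and resident macrophages, had 0.366, 0.269, 0.183, 1.084 and 0.624 CPM in PBS and 0.899, 0.842, 0.924, 0.472 and 0.617 CPM in GA. In PBS, 3 libraries lay below every GA library, while 388_4 was the highest of all 10. The log2 fold change was 0.57 (SE 0.47) and 1.05 without 388_4, the library with the highest sums of monocyte and border-associated macrophage markers (175 and 279 CPM). Of the 9 mast cell and eosinophil markers, 7 were at 0 in all libraries, and their sum of 49.5 to 80.6 CPM came from *Siglecf*, which microglia can express too. The CD45int gate is meant to leave out CD45hi macrophages, and their part in the *Alox15* reads was not tested.

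*Alox8*, a lipoxygenase of mouse skin, had 0 counts in all 5 PBS libraries and in 394_1 and 394_2. It had 13 counts in 400_1 (95% Poisson interval 6.92 to 22.2), 2 in 400_2 and 3 in 400_3, and so appeared only in libraries of the prefix 400. A count of 0 allowed up to 3 counts. Set against that limit over the whole PBS group, the 18 counts of the pooled GA libraries (0.0997 CPM) were 5.71-fold higher. The 5 counts left without 400_1 were 1.96-fold higher. These folds take the GA counts as observed, without their counting error, so they are not lower bounds on the difference.

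Of the cyclooxygenases, *Ptgs1* had 1351, 1282, 1222, 1340 and 1425 CPM in the PBS libraries 388_1 to 388_5. In GA libraries 394_1, 394_2, 400_1, 400_2 and 400_3 it had 1268, 1202, 1321, 1211 and 1271 CPM. It was the steadiest member, with a coefficient of variation of 5.48% over the 10 libraries. The means were 1324 ± 76.4 CPM in PBS and 1255 ± 48.7 CPM in GA (SD, n = 5), a log2 fold change of -0.08 (SE 0.06) with overlapping groups.

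*Ptgs2* had 35, 34, 38, 0 and 5 counts in PBS libraries 388_1 to 388_5 and 63, 3, 37, 12 and 8 counts in GA libraries 394_1, 394_2, 400_1, 400_2 and 400_3. Both groups thus held libraries with over 30 reads beside libraries with few or none, and the highest and 1 of the lowest shared the prefix 394. The coefficient of variation was 91.5%. The log2 fold change of 0.13 (SE 0.88) had no stable sign: it was -0.63 without 394_1, -0.19 without 388_4, -0.12 without 388_5, -0.06 without 400_1 and -0.29 with the 400 libraries alone. The 14 immediate early and dissociation genes summed to 921 to 1329 CPM in PBS and 921 to 1561 CPM in GA. Their sum was 1561 CPM in 394_2, where *Ptgs2* had 3 counts, and 1120 CPM in 394_1, where it had 63, and a relation between them was not tested. *Ptges* had 1 to 10 counts in PBS and 3 to 15 counts in GA libraries, with means of 0.154 ± 0.110 and 0.239 ± 0.144 CPM (SD, n = 5), and was not tested.

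The rest of the pathway was read from a list of 70 genes, of which 67 were in the table and 45 passed the filter. None of the 45 was called in either direction by edgeR, 14 had a positive and 31 a negative log2 fold change, and the median was -0.06 against 0.00 for all genes. Of these, 3 (6.67%, against 5.75% of all tested genes) had an unadjusted p below 0.05. In bulk RNA a lower value from fewer cells of a type cannot be told apart from less RNA per cell.

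In the supply of arachidonic acid, 5 of 11 tested genes had a positive and 6 a negative log2 fold change. *Pla2g4a*, the cytosolic phospholipase A2, had 105.1 CPM on average with a log2 fold change of 0.02 (SE 0.08), and *Pla2g15*, a lysosomal phospholipase, 1066 CPM and -0.09 (SE 0.07). *Mgll*, the monoacylglycerol lipase that feeds arachidonic acid to brain prostaglandins, had 70.0 ± 10.1 CPM in PBS and 60.0 ± 3.98 CPM in GA (SD, n = 5; log2 fold change -0.22, SE 0.10, edgeR adjusted p = 0.854). The PBS library 388_3 was lowest of all in *Mgll* (54.0 CPM), so the groups overlapped. *Daglb*, a diacylglycerol lipase at 510 CPM, shares 2309 exonic bases with *Rac1* and its count is uncertain.

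Downstream of *Alox5*, *Ltc4s*, which makes leukotriene C4, had 79.6 ± 6.87 RPKM (SD, n = 10), so per length it was above *Lta4h*, by 6.52-fold on average. That fold rests on merged exon lengths, and *Lta4h* has 6102 merged exonic bases against 3225 in its longest transcript. *Ltc4s* shares 268 of its 1014 merged exonic bases with an antisense gene, *Gm26542*, and reads there could belong to either gene. The log2 fold change of *Ltc4s* was -0.14 (SE 0.07). Of the tested genes of the leukotriene C4 branch, 1 of 6 had a positive value, *Abcc1*, the leukotriene C4 exporter, at 0.18 (SE 0.10). *Ggt5*, which converts leukotriene C4 to D4, had 52.0 CPM on average and a log2 fold change of -0.02 (SE 0.08). Downstream of *Ptgs1*, the synthases of prostaglandin D2 (*Hpgds*, 71.1 ± 6.01 RPKM) and of thromboxane (*Tbxas1*, 50.9 ± 2.37 RPKM) were the highest, and the prostaglandin E synthases *Ptges3* (17.2 ± 1.96 RPKM) and *Ptges2* (4.82 ± 0.542 RPKM) stood far above *Ptges*. Log2 fold changes of the 8 tested terminal synthases ran from -0.21 to 0.11, with *Akr1b3*, an aldose reductase that can make prostaglandin F2, at 0.03 (SE 0.08). *Hpgd*, which inactivates prostaglandins, reached 297 ± 34.8 RPKM, a level near that of *Ptgs1*, with a log2 fold change of -0.09 (SE 0.10). In the same role *Ptgr2*, a prostaglandin reductase whose exons share 1896 bases with *Gm47484*, had 37.1 CPM and -0.07 (SE 0.08), and *Abcc4*, a prostaglandin exporter, 28.4 CPM and 0.20 (SE 0.12).

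Of the genes that break down leukotrienes or reduce lipid peroxides, 2 of 6 tested had a positive log2 fold change. *Gpx4*, the phospholipid peroxidase that limits lipoxygenase activity, had 52.7 ± 2.83 CPM in PBS and 57.6 ± 2.24 CPM in GA (SD, n = 5), a log2 fold change of 0.13 (SE 0.07). *Gpx1*, the cytosolic glutathione peroxidase, had 504 CPM on average with a log2 fold change of -0.13 (SE 0.09), and *Cyp4f13* 82.5 CPM with -0.06 (SE 0.11).

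Receptors held the widest values. *Ptger4*, the EP4 receptor for prostaglandin E2, had 8.61, 21.1, 16.5, 9.20 and 18.9 CPM in PBS libraries 388_1 to 388_5 and 20.8, 20.3, 24.2, 28.6 and 20.8 CPM in GA libraries 394_1, 394_2, 400_1, 400_2 and 400_3. The PBS libraries 388_1 and 388_4 were far below the rest, while 388_2 lay within the GA range. The log2 fold change was 0.63 (SE 0.22, edgeR adjusted p = 0.847), 0.48 without 388_1 and 0.50 without 388_4. The gene shares 1097 exonic bases with *Ttc33* and *Gm15937*. *Ptger3*, the EP3 receptor, had 16.02 CPM on average and a log2 fold change of -0.10 (SE 0.22).

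*Ltb4r1*, the high-affinity leukotriene B4 receptor, had 29, 29, 72, 66 and 39 counts in the PBS libraries 388_1 to 388_5 and 1, 35, 18, 3 and 19 counts in the GA libraries 394_1, 394_2 and 400_1 to 400_3. All GA values but that of 394_2 were below every PBS value (means 1.395 ± 0.678 and 0.420 ± 0.387 CPM, log2 fold change -1.72, SE 0.65, edgeR adjusted p = 0.847). This receptor is abundant on neutrophils, which the gate is meant to leave out. The neutrophil markers were lowest in 400_1 (17.6 CPM), 400_2 (29.9 CPM), 388_2 (44.0 CPM) and 394_1 (44.7 CPM) and highest in 388_3 (470 CPM), which also had the most *Ltb4r1* reads. Their part in the difference was not tested. *Cysltr1*, the receptor for cysteinyl leukotrienes, had the highest mean CPM among these receptors and reached 25.9 ± 2.86 RPKM (SD, n = 10), with a log2 fold change of -0.07 (SE 0.09). All 5 tested receptors for leukotrienes and related lipid mediators had negative log2 fold changes, none of them called, and the third of these by level, after *Cysltr1* and *Cmklr1* (18.9 CPM, log2 fold change -0.24, SE 0.11), was *Ltb4r1*.

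**Figure D4:**
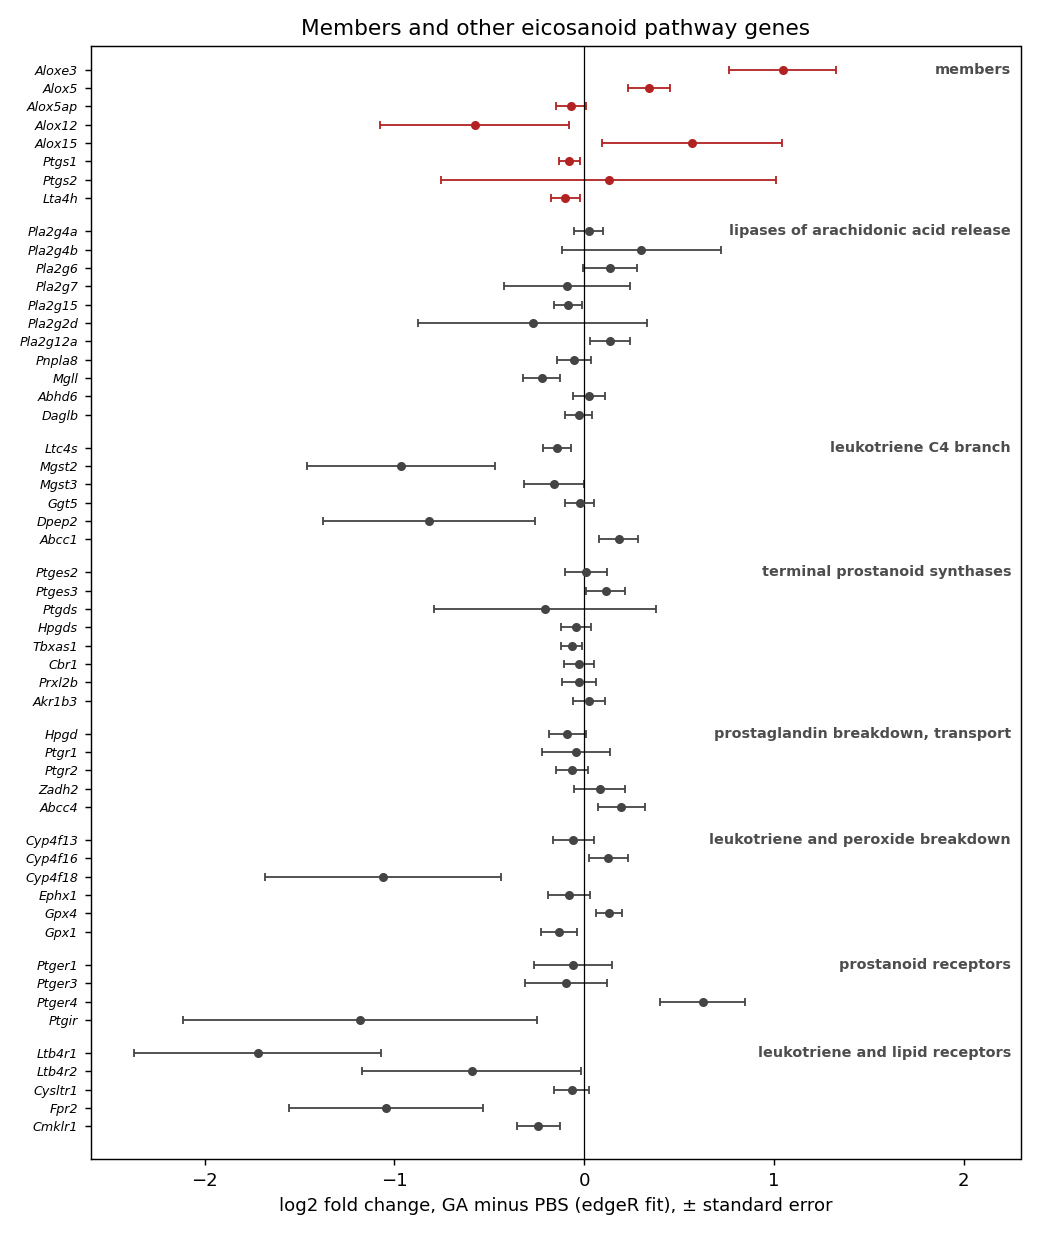
Log2 fold change of GA relative to PBS with its standard error (edgeR fit, linear axis) for the 8 tested members in red and 45 other tested pathway genes in grey, grouped by role. *Aloxe3* was chosen for its value here, *Ptger4* at 0.63 has the highest value among the other pathway genes and *Ltb4r1* at -1.72 the lowest.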

How the data were processed

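Sorted hippocampal microglia were profiled by bulk RNA-seq in 10 libraries, grouped by the treatment in each sample label. The authors deposited raw counts of reads per gene, whole numbers without normalization, and these counts were used as deposited. The submitters' processing notes name bcl2fastq 2.19.0, fastp 0.20.0, STAR 2.7.0f, Subread 1.6.4 with featureCounts, DESeq2 and GRCm38.p6. The annotation release, strand setting and treatment of reads shared between genes are not given in the sources used here.

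The members and lists were chosen with earlier results of these data known. Genes were filtered with filterByExpr (minimum count 10), scaled by TMM and tested with the quasi-likelihood F-test of edgeR 4.0.16 without a covariate, with Benjamini-Hochberg adjustment over 14481 genes (threshold 0.05). DESeq2 1.42.0 and limma 3.58.1 (voom) served as alternatives in R 4.3.3, beside other scalings, other filters, a robust fit, each library left out in turn and GA libraries of either prefix alone. CPM were scaled by TMM, and RPKM divided them by merged exon length from GENCODE M21, which may differ from the authors' annotation. Neighbouring levels were compared with 0.5 counts added, and likeness to *Aloxe3* was computed on log2(CPM + 0.1). Intervals and the limit of 3 counts for a count of 0 cover counting error only, since the reads carry no molecular identifiers. On simulated data of the same depth the edgeR fit was tested for recovery of known changes. Named beyond the members were the 3 genes with the highest mean CPM in each role of the pathway list, those of the list at an unadjusted p below 0.05, the 5 genes most like *Aloxe3*, tested genes within 50 kb of it and the genes beside the DESeq2 threshold of 0.1. *9130213A22Rik*, *Hes7*, *Alox12b*, *Ptges2* and *Ptges3* were added after their values were seen. A prostanoid receptor gene that this rule names is not reported here. Python 3.11.15 with scipy 1.17.1 was used for exact tests.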

Additional observations from a re-analysis of the deposited data

Results flagged for a closer look

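Within each treatment, 25 sets of 5 libraries were checked for 1 library that stood apart from the other 4 by more than Dixon's 95% limit, which chance exceeds in about 1 set in 20, and 3 did. Of these, 2 came from GA library 394_2, which had the highest *Alox5* (155.2 CPM) and the highest *Alox5ap* (152.1 CPM) of the GA group. The third was GA library 400_1, which had 0.376 CPM of *Alox8* against at most 3 counts in any other library.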

How the results depend on the processing

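No member and no gene of the pathway list was called at an adjusted p of 0.05 under any of the 20 alternatives run. Over all genes, 0 were called by edgeR, 2 by DESeq2 with its defaults, and 0 to 1 with a library left out (1 without 394_1, the cause was not tested). The 833 genes at an unadjusted p below 0.05 became 503 with the 394 libraries alone, 1901 without a filter on low counts, and 595 to 1137 with a library left out. The 3 such genes of the pathway list became 0 with the 394 libraries alone, 5 with DESeq2, and 2 to 5 with a library left out. The log2 fold change was 0.94 to 1.20 for *Aloxe3*, 0.25 to 0.48 for *Alox5*, -0.99 to -0.32 for *Alox12*, 0.36 to 1.05 for *Alox15*, -0.10 to -0.05 for *Ptgs1* and -0.16 to -0.05 for *Lta4h*, with no change of sign. That of *Alox5ap* ran from -0.11 to 0.01, with 1 change of sign, and that of *Ptgs2* from -0.63 to 0.61, with 5. The 4 steps of the order by level that differed became 4 to 5 with a library left out and 6 with lengths of the longest transcript. These counts include the steps from *Lta4h* to *Aloxe3* and from *Aloxe3* to *Alox15*, which are not independent of the choice of *Aloxe3*. With lengths of the longest transcript, *Ptgs1* lay 2.01 above *Alox5ap* and *Alox5* 0.43 above *Lta4h* on the log2 scale, against 1.76 and 1.15. No paired analysis was possible because the numbers in the titles restart with each prefix, and each prefix occurs in 1 treatment. Depth limits *Alox8*, *Ptges* and *Ptgs2*, which had 0 to 63 counts per library.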
